A study of Mus musculus with 8 samples.

Results

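The 10 genes described here are used as markers of macrophages that live in a tissue or that take up debris. They are Adgre1, Cd68, Cd163, Mrc1, Lyve1, Vsig4, Folr2, Cx3cr1, Marco and Msr1, out of 18193 genes that have a probe set of their own on the array. They were chosen by name, with earlier results of these data known. Every probe set annotated to one of them and to no other gene was used, which gave 16 probe sets. All 10 genes had at least 1 probe set bright enough to be tested, and 14 of the 16 probe sets passed that filter. Gene expression was measured in ankle joints of mice aged 5 months on 8 single-colour Affymetrix arrays. Of these, 3 are labelled as carrying a human TNF transgene (hTNFa) and as functionally null for sphingosine kinase 1 (SphK1), and are called the arrays labelled Sphk1 null. Another 3 carry the transgene with normal SphK1 activity and are called hTNF, and 2 are wild type with normal activity of both genes. The labels do not give the strain, the sex, the promoter that drives the transgene, or which animals were littermates, so the p-values measure the spread between these arrays only, which may be technical.

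Macrophages of the joint are a mixture. In the mouse synovium a lining layer of resident macrophages that express Cx3cr1 and Vsig4 borders the joint cavity, and the tissue beneath holds macrophages with Mrc1, Folr2 or Lyve1. During arthritis, monocytes from the blood enter the joint and mature into macrophages there. Scavenger receptors such as Msr1, Marco and Cd163 bind modified lipoproteins, microbes or haemoglobin complexes and carry them into the cell.

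Some features of the arrays bear on all results below. The targeted gene, Sphk1, was not low on the arrays labelled null for it, which read 10.22, 9.94 and 10 log2 on its tested probe set, with 8.63, 8.65 and 8.28 in hTNF, and 7.25 and 7.16 in wild type. The transcript level thus does not follow the label, and where the probes lie relative to the inactivated part is not given. Every direction given for these arrays rests on the label. Replicate 1 of hTNF carried the most signal from skin, with a mean of 11.73 log2 over 9 epidermal genes against 6.36 and 8.77 on the other hTNF arrays, 6.51 to 10.31 on the arrays labelled Sphk1 null, and 7.08 and 8.25 in wild type. Xist ranged from 7.29 to 13.16 log2 and the Y-linked gene Eif2s3y from 3.46 to 9.14, and 3 arrays (replicate 1 of the arrays labelled Sphk1 null, replicate 1 of hTNF and replicate 2 of wild type) had Xist above 10 together with Eif2s3y above 6. The 2 wild-type arrays also differed in 9 neutrophil genes, with means of 8.09 and 11.22 log2. The part of these differences in the results below was not tested. Values without the 3 arrays with both Xist and Eif2s3y signal are given beside Cd163, Cx3cr1, Lyve1 and Mrc1, and these arrays were picked out after seeing the data. Without them, replicates 2 and 3 of each transgenic group and wild-type replicate 1 remain. That lone wild-type array has low Xist (7.45 log2) and high Eif2s3y (8.86).

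Most, but not all, of these macrophage markers were higher in transgenic joints. In hTNF against wild type, Adgre1, Cd68, Marco, Msr1, Cx3cr1 and Mrc1 rose, Lyve1 and Vsig4 fell, and Cd163 and Folr2 did not pass the test. A gene was called at a limma adjusted p under 0.05, adjusted over all 24115 tested probe sets. The 6 rises and 2 falls among 10 members compare with 16.5% of all 12362 tested genes called higher and 19.6% called lower in the same contrast. Because the members were chosen with earlier results of these data known, this comparison is a description and no test. The median log2 difference of the members was 1.28, against -0.02 for all tested genes. Marco was below the brightness filter on both wild-type arrays and was tested only because it is bright on the transgenic ones, so its rise adds nothing to these counts. Of the other 9 members 5 rose and 2 fell, with a median of 0.76 log2, against 15.7% and 20.3% of the 11935 genes that pass the filter on a wild-type array. In every one of the 8 called members the hTNF arrays did not overlap the wild-type arrays, which held for 28.7% of all genes in the higher and 35.1% in the lower direction. Marco adds nothing to this count either. With RNA from a whole joint, fewer cells of a type and less RNA per cell cannot be told apart.

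**Figure D1:**
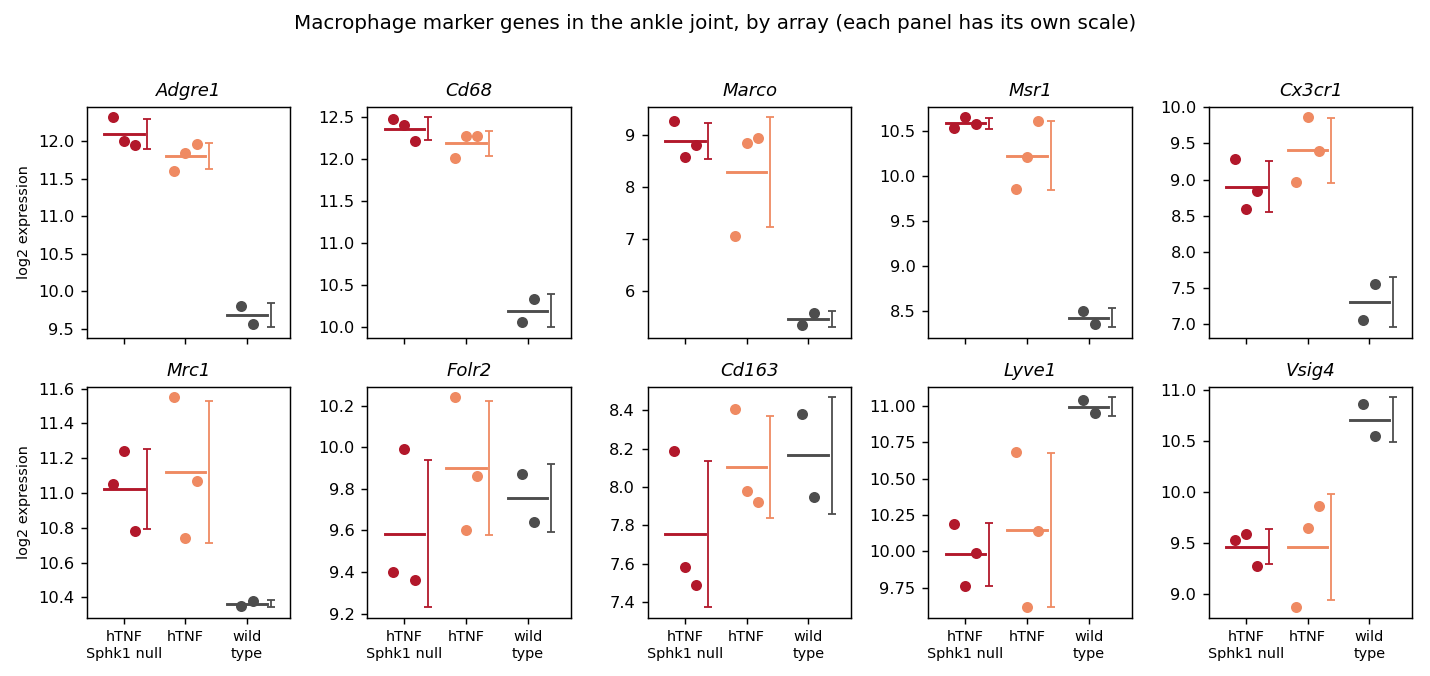
Log2 expression (vertical axis, a separate scale in each panel) of the probe set that stands for each of the 10 genes on the 8 arrays, by group. Each point is 1 array, the horizontal line is the group mean and the bar beside it is 1 SD (n = 3, 3 and 2). In the upper row all transgenic arrays lie above both wild-type arrays, in Lyve1 and Vsig4 all lie below them, and in Folr2 and Cd163 the groups overlap.

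The upstream sequences of Cd68, Marco and Vsig4 are shown because Cd68 and Marco are members that rose and Vsig4 is the member with the largest fall. RefSeq promoters on build GRCm38.p6 were found for 7 of the 10 members, with 8 start sites in all. The 250 bases before the start are printed 5′ to 3′ on the strand of the gene, for Cd68 at chr11:69666171-69666420, for Marco at chr1:120505025-120505274 and for Vsig4 at chrX:96293439-96293688, each on the minus strand. Capitals mark GAGGAA, the core bound by the macrophage factor encoded by Spi1, and TGANTCA, the AP-1 site, searched on both strands without overlaps between them.
Cd68: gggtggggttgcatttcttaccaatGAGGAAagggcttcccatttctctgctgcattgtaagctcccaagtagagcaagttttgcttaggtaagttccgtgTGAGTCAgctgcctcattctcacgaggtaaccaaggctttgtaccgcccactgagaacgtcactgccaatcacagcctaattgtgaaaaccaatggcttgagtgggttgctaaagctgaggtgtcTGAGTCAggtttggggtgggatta
Marco: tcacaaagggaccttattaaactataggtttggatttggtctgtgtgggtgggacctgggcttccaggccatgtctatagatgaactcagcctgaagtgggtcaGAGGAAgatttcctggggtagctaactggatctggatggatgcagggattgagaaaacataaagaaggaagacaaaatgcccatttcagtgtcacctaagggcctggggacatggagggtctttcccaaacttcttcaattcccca
Vsig4: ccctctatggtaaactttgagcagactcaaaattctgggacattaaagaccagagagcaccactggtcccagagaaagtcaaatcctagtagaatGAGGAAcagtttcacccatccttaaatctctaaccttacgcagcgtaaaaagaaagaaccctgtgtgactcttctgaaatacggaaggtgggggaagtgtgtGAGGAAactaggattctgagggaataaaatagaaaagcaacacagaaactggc
GAGGAA was found upstream of 4 of the 7 genes (Cd68, Marco, Mrc1 and Vsig4), against 23.3% of 32851 promoter windows of the same length. TGANTCA was found upstream of Cd68 and of 1 of the start sites of Folr2, against 6.75% of all windows. The NF-kB consensus was in none of the member windows and in 3.9% of all windows. GAGGAA therefore stands upstream of members that rose and of a member that fell, and such a match is a description of letters, not a measured binding site.

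The general macrophage markers gave the most even rise. Adgre1, an adhesion G protein-coupled receptor that is the classical surface antigen of mouse macrophages, read 11.61, 11.84 and 11.96 log2 in hTNF, against 9.8 and 9.57 in wild type. It rose by 2.12 ± 0.14 log2 (SE, 3 arrays against 2), a 4.34-fold difference, with a limma adjusted p of 2.13e-05. Cd68, a glycoprotein of macrophage lysosomes and endosomes, read 12.01, 12.27 and 12.27 log2 in hTNF and 10.06 and 10.34 in wild type, a rise of 1.98 ± 0.13 log2 (3.95-fold; limma adjusted p = 1.6e-05). The hTNF arrays spread over 0.35 log2 for Adgre1 and 0.26 for Cd68, and the lowest of them stood 1.81 and 1.67 log2 above the highest wild-type array. Leaving out 1 array at a time kept Adgre1 between 2.0 and 2.23 log2 and Cd68 between 1.84 and 2.12.

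The class A scavenger receptors among the members, Msr1 and Marco, rose. Outside the members, Scara3 of the same class fell (-0.63 ± 0.1 log2, limma adjusted p = 0.00144), and Scara5 and Colec12 were not called. Msr1, which takes up modified lipoproteins and other polyanions, read 9.85, 10.21 and 10.61 log2 in hTNF, against 8.5 and 8.35 in wild type. Its brightest probe set rose by 1.8 ± 0.19 log2 (3.48-fold; limma adjusted p = 0.000175). A second probe set rose by 2.87 ± 0.17 log2 (limma adjusted p = 1.28e-05). The third was below the brightness filter on both wild-type arrays, at 6.68 and 6.63 log2, and was tested only through the transgenic ones. Its difference as deposited, 2.06 ± 0.15 log2 (limma adjusted p = 3.04e-05), therefore gives no firm size. The fourth, too dim to be tested, was 1.36 log2 higher. The direction is thus shared by all 4 Msr1 probe sets, and the size depends on the probe set.

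Marco, a collagen-like receptor for bacteria and particles, read 7.07, 8.85 and 8.93 log2 in hTNF, against 5.36 and 5.58 in wild type. Both wild-type values lie below 6.87 log2, the median of the whole table that served as the filter on dim signal, so only a bound on the rise can be given. Set against that filter value, the mean of hTNF was at least 1.41 log2 (2.66-fold) higher, and limma on the values as deposited gave an adjusted p of 0.00202. Replicate 1 of hTNF, the array with the most skin signal, was the low one, 1.82 log2 below the mean of the other hTNF arrays. A second, dimmer Marco probe set read 6.87, 7.94 and 7.49 log2 in hTNF, against 5.97 and 6.69 in wild type, again below the filter there (limma adjusted p = 0.0446).

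The other scavenger receptors among the members are Mrc1 and Cd163. Mrc1, the mannose receptor, read 11.55, 10.74 and 11.07 log2 in hTNF, against 10.35 and 10.38 in wild type, and rose by 0.76 ± 0.21 log2 (1.69-fold; limma adjusted p = 0.0238). The hTNF arrays all lay above wild type but spread over 0.81 log2, with replicate 1 the highest. The call for Mrc1 ended without hTNF replicate 3 (limma adjusted p = 0.0534) and without either wild-type array, which leaves a lone wild-type array. Without the 3 arrays with both Xist and Eif2s3y signal, an alternative chosen after seeing the data, the Mrc1 difference was 0.55 log2. That choice also leaves a lone wild-type array, replicate 1. Cd163, the receptor for haemoglobin bound to haptoglobin, read 8.41, 7.98 and 7.92 log2 in hTNF and 8.38 and 7.95 in wild type. Its groups overlapped fully, and the difference was -0.06 log2 with a 95% interval of -0.6 to 0.48 (limma adjusted p = 0.883), so a rise as large as that of Adgre1 or Cd68 lies outside the interval. Without the 3 arrays with both Xist and Eif2s3y signal it was -0.43 log2. That value rests on wild-type replicate 1 alone, the higher of the wild-type arrays at 8.38 log2.

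Among the 4 markers of resident macrophages, 1 rose, 2 fell and 1 was not called. Cx3cr1, the receptor for the membrane-bound chemokine fractalkine, read 8.96, 9.86 and 9.39 log2 in hTNF, against 7.06 and 7.55 in wild type. It rose by 2.1 ± 0.28 log2 (4.28-fold; limma adjusted p = 0.00056), and the lowest hTNF array stood 1.41 log2 above the highest wild-type array. The other Cx3cr1 probe set stayed below the filter on all 8 arrays and overlapped between the groups. Folr2, folate receptor beta, read 10.24, 9.6 and 9.86 log2 in hTNF and 9.87 and 9.64 in wild type. Its difference was 0.15 log2 with a 95% interval of -0.37 to 0.66 (limma adjusted p = 0.685).

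Vsig4, a complement receptor of the immunoglobulin superfamily that clears opsonised particles, fell most. It read 8.87, 9.65 and 9.86 log2 in hTNF, against 10.86 and 10.55 in wild type, and fell by 1.24 on the log2 scale (SE 0.26, 2.37-fold lower; limma adjusted p = 0.00533). All hTNF arrays were below both wild-type arrays, replicate 1 of hTNF furthest. Without that array the difference was -0.95 log2 and still called (limma adjusted p = 0.0028), and without wild-type replicate 1 it was -1.09 log2 and narrowly missed the call (0.0558).

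Lyve1, a hyaluronan receptor of lymphatic endothelium and of some perivascular macrophages, fell by 0.85 on the log2 scale (SE 0.26, 1.8-fold lower; limma adjusted p = 0.0317). It read 10.68, 9.62 and 10.14 log2 in hTNF, against 11.04 and 10.95 in wild type, so that hTNF replicate 1 lay close to wild type and replicate 2 furthest below. A second Lyve1 probe set had the same order of arrays and a difference of -0.63 ± 0.25 log2 that missed the threshold (limma adjusted p = 0.0843). The call on the brighter probe set ended without hTNF replicate 2 (-0.59 log2, limma adjusted p = 0.0611), hTNF replicate 3 (0.0756), wild-type replicate 1 (0.151), wild-type replicate 2 (0.0984) or replicate 3 of the arrays labelled Sphk1 null (0.0512), and with only hTNF and wild type in the fit (0.0655). Without hTNF replicate 1 it was -1.12 log2 (0.00304).

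Lyve1 is also made by lymphatic vessels, whose other markers went both ways. Of 6 tested lymphatic genes, 1 rose and 3 fell in hTNF (16.7% and 50%, against 16.5% and 19.6% of all genes). Nothing is read from the share higher, which is near that of all genes. Their mean level was 9.22 to 9.31 log2 in hTNF, against 9.26 and 9.41 in wild type. The glycoprotein Reln differed by -0.93 ± 0.12, Sema3d by -1.01 ± 0.14 and the hyaluronan receptor Stab2 by -0.78 ± 0.18 log2, and all 3 fell (limma adjusted p of at most 0.00848). Pdpn, also made by synovial fibroblasts, rose by 1.78 ± 0.09 log2, and the lymphatic growth factor receptor Flt4 differed by 0.24 ± 0.12 (limma adjusted p = 0.184). Prox1, the defining factor of lymphatic endothelium, stayed below the filter in all 3 of its probe sets, at 3.91 to 5.44 log2 on the 8 arrays. The part of lymphatic vessels in the fall of Lyve1 was not tested.

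**Figure D2:**
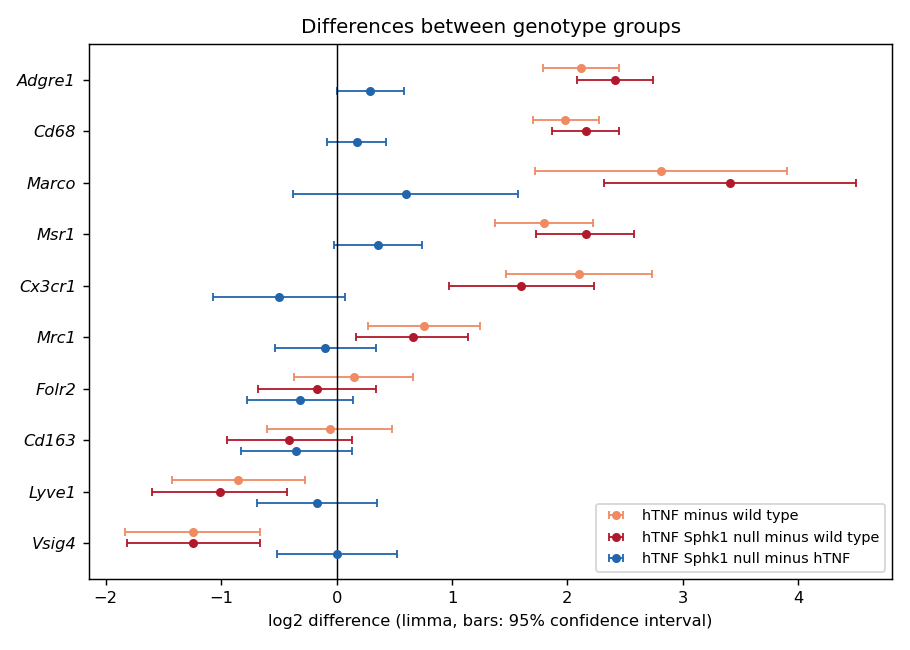
Log2 difference (horizontal axis) of each of the 10 genes in hTNF minus wild type, in the arrays labelled Sphk1 null minus wild type, and in the arrays labelled Sphk1 null minus hTNF. Points are limma estimates with their 95% confidence intervals. The intervals of both comparisons with wild type lie above 0 for 6 genes and below 0 for Lyve1 and Vsig4, and those between the transgenic groups are centred between -0.5 and 0.6. The points of Marco against wild type rest on wild-type values below the brightness filter.

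No member passed the test between the arrays labelled Sphk1 null and hTNF. Limma called 0 of 10 members, with 0.0162% of all tested genes called higher and 0% called lower. At an unadjusted p under 0.05 there were also 0 of 10 members, against 6.27% of all tested genes. On the probe set that stands for each gene, no member had groups without overlap, against 10% of all genes. The median difference of the members was -0.05 log2, against -0.02 over all genes.

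The smallest p belonged to Adgre1, with 12.32, 12.01 and 11.95 log2 on the arrays labelled Sphk1 null, against 11.61, 11.84 and 11.96 in hTNF. That is 0.29 ± 0.13 log2 higher (limma adjusted p = 0.66), and the groups overlapped by a single array. Cd68 read 12.47, 12.4 and 12.21 log2 on the arrays labelled Sphk1 null and 12.01, 12.27 and 12.27 in hTNF, with an interval of -0.08 to 0.43 for the difference. Msr1 read 10.53, 10.65 and 10.57 log2 on the arrays labelled Sphk1 null and 9.85, 10.21 and 10.61 in hTNF, and its interval ran from -0.02 to 0.74. These intervals leave room for a rise of less than 1 log2 and none for a fall of that size.

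Cx3cr1 pointed the other way, with 9.28, 8.59 and 8.84 log2 on the arrays labelled Sphk1 null, against 8.96, 9.86 and 9.39 in hTNF. The difference was -0.5 ± 0.25 log2, with an interval of -1.07 to 0.07 (limma adjusted p = 0.672). With all arrays the groups overlapped. Without the 3 arrays with both Xist and Eif2s3y signal the difference was -0.91 ± 0.18 log2 between replicates 2 and 3 of each group, and was not called (limma adjusted p = 0.262). Cd163 read 8.19, 7.58 and 7.49 log2 on the arrays labelled Sphk1 null, with a difference of -0.35 from hTNF and an interval of -0.83 to 0.13. Without those 3 arrays it was -0.42 ± 0.11 log2 (limma adjusted p = 0.265). The planned choice left out every array with Xist and any Y-linked gene above 6.87 log2. These are replicate 1 of the arrays labelled Sphk1 null, replicate 2 of hTNF and both wild-type arrays, while replicate 1 of hTNF stays in. It gave -0.63 ± 0.19 log2 for Cd163 (limma adjusted p = 0.34). Folr2 read 9.4, 9.99 and 9.36 log2, with a difference of -0.32 and an interval of -0.78 to 0.14.

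Marco read 9.26, 8.58 and 8.8 log2 on the arrays labelled Sphk1 null and 7.07, 8.85 and 8.93 in hTNF. The difference of 0.6 ± 0.43 log2 rests on hTNF replicate 1, without which it was -0.01 ± 0.2. Vsig4 read 9.53, 9.59 and 9.27 log2 on the arrays labelled Sphk1 null and 8.87, 9.65 and 9.86 in hTNF, a difference of 0 with an interval of -0.52 to 0.52. Without hTNF replicate 1 it was -0.29 log2 (limma adjusted p = 0.999). Lyve1 read 10.19, 9.76 and 9.99 log2 on the arrays labelled Sphk1 null (difference -0.17, interval -0.69 to 0.35). Its difference was -0.54 ± 0.2 log2 without the arrays of the planned choice and 0 ± 0.18 without the 3 arrays with both Xist and Eif2s3y signal. Mrc1 read 11.05, 11.24 and 10.78 log2 there (difference -0.1, interval -0.53 to 0.34). A change as large as the rise of Cx3cr1 or the fall of Vsig4 between hTNF and wild type lies outside the interval of the same gene here.

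The arrays labelled Sphk1 null, set against the same 2 wild-type arrays, had the same 6 members called higher and the same 2 called lower. This compares with 19.1% of all genes called higher and 23.8% called lower. Again none of these 8 members overlapped between the groups, which held for 28.3% of all genes in the higher and 32.5% in the lower direction. Marco, tested only because it is bright on the transgenic arrays, adds nothing to either count. Adgre1 rose by 2.41 ± 0.14, Cd68 by 2.16 ± 0.13, Msr1 by 2.16 ± 0.19, Cx3cr1 by 1.6 ± 0.28 and Mrc1 by 0.66 ± 0.21 log2 (limma adjusted p of at most 0.0364). Marco was at least 2.01 log2 above the filter value that wild type does not reach (limma adjusted p = 0.00052). Vsig4 differed by -1.24 ± 0.26 and Lyve1 by -1.01 ± 0.26 log2 (limma adjusted p = 0.00438 and 0.0122), and here the second Lyve1 probe set fell as well (-0.78 ± 0.25, 0.034). Folr2 differed by -0.17 ± 0.23 log2 (0.599). Cd163 differed by -0.41 ± 0.24 log2 and was not called (0.212), but it was called lower without replicate 1 of the arrays labelled Sphk1 null (-0.63 log2, 0.037). Without the 3 arrays with both Xist and Eif2s3y signal it was -0.85 log2. That value sets replicates 2 and 3 of the arrays labelled Sphk1 null (Xist 12.89 and 13.1 log2) against wild-type replicate 1 alone (Xist 7.45). Xist differs along with the group there, and the parts of each cannot be told apart. The Mrc1 call ended without replicate 1 (0.0744) or 2 (0.1) of the arrays labelled Sphk1 null, without hTNF replicate 3 (0.0533) and with all dim probe sets kept (0.0524). It also ended without either wild-type array and without the 3 arrays with both Xist and Eif2s3y signal. Each of these last fits leaves a lone wild-type array. The Lyve1 call ended without wild-type replicate 1 (0.0743).

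Of 22 other tested genes of resident macrophages, 6 rose, 4 fell and 12 were not called in hTNF against wild type, with a median of 0.07 log2. These are 27.3% higher and 18.2% lower, against 16.5% and 19.6% of all genes, and nothing is read from the share lower, which is near that of all genes. Platelet factor Pf4 rose by 1.84 ± 0.13, the lipid-sensing receptor Trem2 by 1.78 ± 0.15, and the complement subunits C1qa and C1qb by 1.43 ± 0.11 and 1.38 ± 0.11 log2 (limma adjusted p of at most 5.26e-05). Igf1 and C1qc were the other rises. The 4 falls, named after their values were seen, were small: the carbonyl reductase Cbr2 (-0.6 ± 0.17), the eosinophil-attracting chemokine Ccl24 (-0.57 ± 0.13), the lectin Fcna (-0.49 ± 0.12) and the transglutaminase F13a1 (-0.47 ± 0.12 log2; limma adjusted p of at most 0.0213). Timd4, a receptor for phosphatidylserine on long-lived resident macrophages, was too dim to be tested. The counts use the brightest probe set, on which the transcription factor Maf was not called (0.02 ± 0.14 log2). Maf was called lower on dimmer probe sets (-0.67 ± 0.18 and -0.6 ± 0.17 log2, limma adjusted p = 0.0173 and 0.0247). Its remaining tested probe sets were not called.

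Among 14 other scavenger receptors, 4 rose and 4 fell (28.6% each way, against 16.5% and 19.6% of all genes), with a median of 0.02 log2. Stab2 counts among these falls and also among those of the lymphatic genes. Olr1 was tested only through the transgenic arrays, and without it 3 of 13 rose and 4 fell, with a median of -0.01 log2. The chemokine and scavenger receptor Cxcl16 rose by 2.84 ± 0.21 log2 (limma adjusted p = 3.36e-05). The oxidised-lipoprotein receptor Olr1 was dim in wild type, at 4.47 and 4.98 log2, and its mean in hTNF was at least 0.23 log2 higher when set against the filter value (0.000174). Cd36, a fatty acid transporter that fat cells, muscle and endothelium make too, fell by 0.97 on the log2 scale (0.000462). Of 8 skeletal muscle genes 6 fell (75%, against 19.6% of all genes), at means of 12.65 to 13 log2 in hTNF, against 14.02 and 14.04 in wild type. Their part in the Cd36 value was not tested.

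Most genes of haemoglobin uptake and haem handling, the process that Cd163 serves, rose, while Cd163 itself was not called. Of 8 tested genes of haemoglobin uptake and haem and iron handling, 7 rose and none fell (87.5% higher, against 16.5% of all genes), with a median of 0.62 log2. The haem-degrading enzyme Hmox1 read 10.23, 10.58 and 10.43 log2 in hTNF, against 8.14 and 7.75 in wild type, and rose by 2.47 ± 0.15 log2 (limma adjusted p = 1.29e-05). Haptoglobin, Hp, rose by 1.28 ± 0.16, and the biliverdin reductases Blvrb and Blvra by 0.79 ± 0.15 and 0.65 ± 0.11 log2. The iron exporter Slc40a1 differed by -0.72 ± 0.26 log2 (limma adjusted p = 0.0641), and it was lower on the arrays labelled Sphk1 null against wild type (-1.01 log2, 0.0132).

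Among ligands and receptors that maintain macrophages or bind a member, 9 of 10 tested genes rose and none fell in hTNF (90% higher, against 16.5% of all genes). The ligand of Cx3cr1, Cx3cl1, read 9.82, 10.26 and 9.84 log2 in hTNF, against 7.76 and 7.73 in wild type, a rise of 2.23 ± 0.17 log2 (limma adjusted p = 3.84e-05), so that receptor and ligand rose together. The macrophage growth factors Csf1 and Il34 both rose by 0.85 log2 (SE 0.1 and 0.14) and their receptor Csf1r by 1.06 ± 0.11. The subunits of the GM-CSF receptor, Csf2ra and Csf2rb, rose by 2.55 ± 0.17 and 2.2 ± 0.2, and the integrin Itgax by 2.84 ± 0.26 log2.

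Of 18 tested genes of recruited monocytes and inflammatory macrophages, 12 rose and none fell (66.7% higher, against 16.5% of all genes), with a median of 2.21 log2. Clec4e, F10 and Arg1 were below the filter on both wild-type arrays and were tested only through the transgenic ones, and without them 9 of 15 rose, with a median of 1.8 log2. The lectin Clec4d rose by 4.79 ± 0.22 and Tlr2, which senses bacterial lipoproteins, by 3.35 ± 0.2 log2. The related lectin Clec4e, at 11.97 to 12.85 log2 in hTNF, was at least 5.65 log2 higher when set against the filter value. Arg1, an enzyme that consumes arginine, had a wide spread, at 12.63, 7.15 and 9.94 log2 in hTNF, and its mean was at least 3.04 log2 higher on the same bound. Of 11 lineage transcription factors 6 rose and 1 fell (54.5% and 9.09%, against 16.5% and 19.6% of all genes). Tfec (2.0 ± 0.26), Spi1 (1.92 ± 0.19) and Cebpb (1.05 ± 0.15 log2) were among the rises. The fall was Pparg (-1.89 ± 0.19 log2), which fat cells also express. Between the arrays labelled Sphk1 null and hTNF, limma called 0 of the 122 tested genes of these and the other lists. At an unadjusted p under 0.05 there were 19 (15.6%, against 6.27% of all genes), 11 of them higher. Many of these 19 are not macrophage genes. They include the muscle genes Acta1, Myh4, Myh1, Mb, Tnnt3 and Actn3, the lymphatic genes Flt4, Pdpn and Mmrn1, and Cd3e. Stab2, which stands in both the lymphatic and the scavenger receptor list, is among the 19 too. The share is thus not a result about macrophage genes. Among the macrophage genes of these 19, named after their values were seen, were Il1b (1.04 ± 0.23 log2, limma adjusted p = 0.438), Cebpb (0.6 ± 0.14, 0.453), Cd14 (0.52 ± 0.14, 0.558) and Hmox1 (0.5 ± 0.13, 0.558). Lower ones were Pparg (-0.56 ± 0.17, 0.6) and Clec10a (-0.43 ± 0.14, 0.607).

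**Figure D3:**
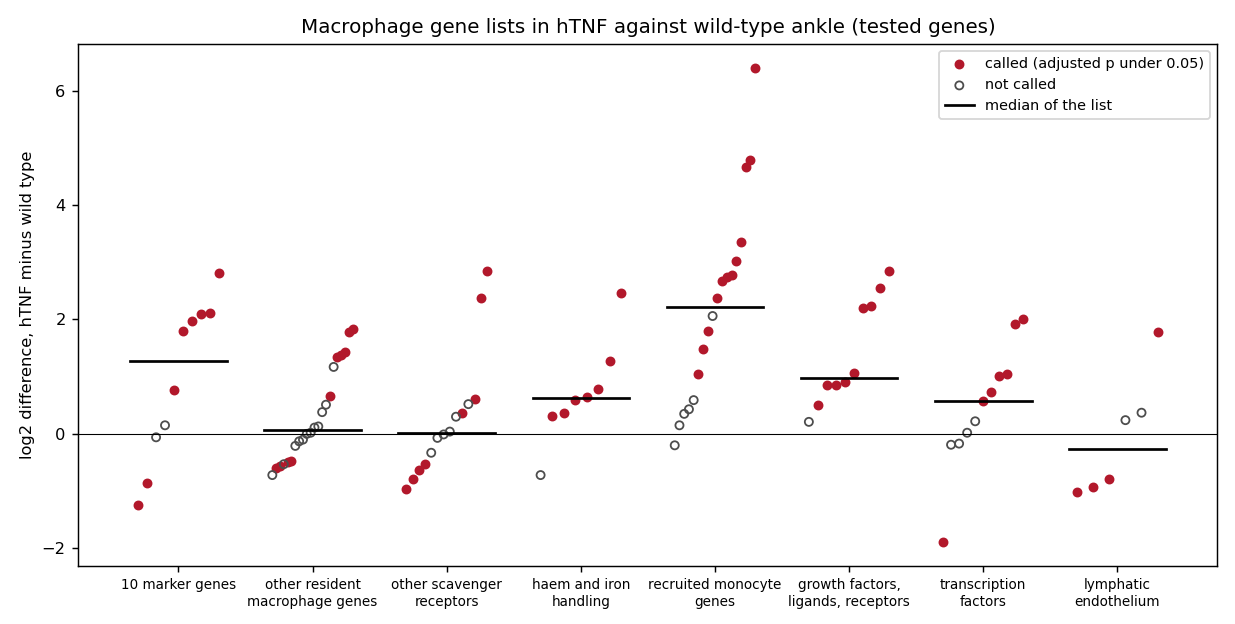
Log2 difference of hTNF minus wild type (vertical axis) for the 10 marker genes and the tested genes of 7 other lists. Each point is a gene, filled where limma called it and open where not, and the bar is the list's median. The monocyte list has its median at 2.21, with 3 of its genes below the filter on both wild-type arrays, and the other resident and scavenger lists have theirs at 0.07 and 0.02 with calls on both sides of 0. Marco among the marker genes and Olr1 among the scavenger receptors also lay below the filter on both wild-type arrays.

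Markers of other blood cells were looked at in the same way. Called higher were 11.1% of the neutrophil, 66.7% of the dendritic and 20% of the T and NK cell genes tested, against 16.5% of all genes. Nothing is read from the neutrophil and the T and NK cell shares, which are near that of all genes. Of 9 neutrophil genes 1 rose (Csf3r, 0.96 ± 0.17 log2), at means of 9.57 to 10.55 log2 in hTNF, against 8.09 and 11.22 in wild type, and the gap between the wild-type arrays leaves wide intervals, such as -1.47 to 3.7 log2 for Ngp. Of 6 dendritic cell genes 4 rose, each by less than 1 log2, led by Cd209a (0.96 ± 0.21 log2), and Itgae among them was below the filter on all hTNF and wild-type arrays. Of 5 T and NK cell genes, some of which come from cells that also make Cx3cr1, 1 rose (Cd4, 0.67 ± 0.19 log2), and the mean level was 7.23 to 7.62 log2 in hTNF, against 7.04 and 7.4 in wild type. None of the 9 skin genes was called (0 of 9 at an unadjusted p under 0.05), with a median of 1.41 log2.

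The genes with the array pattern most like a member were found by the smallest root mean square difference of values centred over the 8 arrays, among 12362 genes. This is a description and has no test. For Marco these were Aoah, Gpr84 and Pla2g7, at 0.19, 0.26 and 0.31 log2, over a range of 3.9 log2 for Marco itself. Adgre1 was closest to Hmcn1, Smpdl3b and Mcoln2, at 0.11 to 0.12 log2. For Vsig4 they were Tnxb, P2ry2 and Ppp1r12b, at 0.15 to 0.23 log2, and for Lyve1 they were Erbb3, Ccn3 and Chdh, at 0.11 to 0.14 log2.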

How the data were processed

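The deposited table holds the authors' log2 expression values of 45101 probe sets in 1 column per array. Expression Console from Affymetrix, MAS5 and RMA are named, per the submitters' processing notes; the one behind these values and its normalization are not given in the sources used here. Array medians lie between 6.84 and 6.89 log2, so differences in total RNA are not visible, and summarised brightness compresses changes of dim and very bright probe sets. The number of arrays limits the precision: the median SE of a log2 difference was 0.14 for hTNF against wild type.

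Names come from the platform annotation, updated by gene identifier (GRCm38.p6 table, used for names, chromosomes and promoters); 34741 of 34945 single-gene probe sets matched. Control probe sets were left out, and the 24115 above 6.87 log2, the median of the table, on at least 2 arrays were tested. The linear model in limma 3.58.1 (R 4.3.3) gave each group its own mean over all 8 arrays, with an intensity trend and 5 residual degrees of freedom, with Benjamini-Hochberg adjustment, and the fit was tested on simulated data. The brightest tested probe set stands for a gene. All members are named; of each other list, the 4 genes with the largest called difference and no overlap in hTNF against wild type, a fixed set of ligands and factors, and for 4 members the 3 genes of closest pattern. Sequences are RefSeq's. Members and lists were chosen with earlier results of these data known. Alternatives covered the filter, normalization, offset, variance trend, arrays in the fit, replicate number as a block, probe sets per gene and each array left out.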

Additional observations from a re-analysis of the deposited data

How the results depend on the processing

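With no filter, quantile normalization, an offset of 32, no intensity trend and the mean over probe sets, 6 members were called higher and 2 lower in hTNF against wild type; with a stricter filter, which Marco did not pass, 5 were called higher, and with only the 2 groups compared in the fit 1 was called lower. Leaving out single arrays gave 5 to 6 members higher and 0 to 2 lower in that comparison, with 4695 to 9313 probe sets called, and 1 to 3 members lower in the arrays labelled Sphk1 null against wild type. Between these arrays and hTNF no alternative called a member; the count of probe sets was 1 with the stricter filter, 6 with quantile normalization, 0 without the arrays that had Xist together with Y-linked signal, by the planned rule or by the rule added after seeing the data, and 0 to 3 leaving out 1 array, against 2.

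Members without a call changed sign in places. In hTNF against wild type, Cd163 was 0.05 log2 with the replicate block and -0.28 to 0.15 leaving out 1 array. Without the 3 arrays of the added rule, which leaves a lone wild-type array, Cd163 was -0.43 and Folr2 -0.14 log2. Folr2 was -0.03 to 0.29 leaving out 1 array. Between the arrays labelled Sphk1 null and hTNF, leaving out those 3 arrays gave Mrc1 0.1, Marco -0.2 and Vsig4 -0.32, and leaving out 1 array gave Mrc1 -0.29 to 0.12, Marco -0.01 to 0.92, Vsig4 -0.29 to 0.2 and Lyve1 -0.43 to 0.1 log2. The cause was not tested. Replicate numbers are shared between groups, but the deviations of same-numbered arrays correlated at 0.23, 0.05 and 0.25 between the transgenic groups at 0.27 and 0.18 between the arrays labelled Sphk1 null and wild type, and at -0.05 and -0.17 between hTNF and wild type. Not every array correlated best with its own number. The deviations of the 2 wild-type arrays mirror each other by construction, so these correlations cannot decide whether same-numbered arrays were handled together. The mean of the 9 skin genes ranked the replicate numbers alike in every group. In order of replicate it was 10.31, 6.51 and 9.36 log2 on the arrays labelled Sphk1 null, 11.73, 6.36 and 8.77 in hTNF, and 8.25 and 7.08 in wild type. Shared handling was not tested. With the replicate block, 6515 probe sets were called in hTNF against wild type, 2 between the transgenic groups and 7770 in the arrays labelled Sphk1 null against wild type, and the members called were 6 higher and 2 lower in both comparisons with wild type. The planned rule on Xist and Y-linked signal takes both wild-type arrays and gave no value against wild type. With a wild-type array or the 3 arrays of the added rule left out, the lone wild-type array is assumed to vary like the other groups. Signal below 6.87 log2, as in wild-type Marco, gives no firm size.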
